A study of Mus musculus with 6 samples.

Results

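Wild-type V6.5 mouse embryonic stem cells were compared with the untreated cells of the RNA polymerase II degron line made from the same parent, gene by gene, on raw read counts joined by gene identifier. The comparison used 4 of the 6 RNA-seq libraries of the series, 2 of each kind, and 15778 of the 39017 genes in the tables passed the filter on low counts and were tested. V6.5 is a male line from a C57BL/6 × 129/sv cross and was grown on irradiated mouse embryonic fibroblasts in serum with LIF. The degron cells were clonal and selected for homozygous insertion of mAID-EGFP at the C-terminus of RPB1, the largest Pol II subunit (gene Polr2a). They carried the auxin receptor OsTIR1 with a 3xHA tag, driven by the TetO-3G promoter, at the Rosa26 locus. The number of clones behind these libraries was not stated in the sources used here. Untreated degron cells had received 1 μg/ml doxycycline for 12 h, which induces OsTIR1, and no auxin. The labels call the other cells only Pol2 wild type, and whether they received doxycycline was not stated in the sources used here. The remaining 2 libraries are the same degron line after 500 μM auxin for 6 h, and their values are given only where they show the level of a gene in other libraries of that line.

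Embryonic stem cells of the mouse divide quickly and draw heavily on glycolysis, lipid synthesis and nucleotide synthesis. Their identity is held by a set of transcription factors (Oct4, Sox2, Nanog and others) that answer to LIF, BMP, Wnt and FGF signals, and a culture usually contains small numbers of cells that have moved towards earlier or later embryonic states. A degron line differs from its parent by the edits, by the drug selection and cloning, and by the time that passed in culture.

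Total counts ranged from 14094022 to 14878507 over the 4 libraries, so depth differed little between groups. Each library thus counts a gene at 100 CPM (counts per 1000000 counts of the library) with more than 1000 reads, and genes under about 20 reads carry wide errors. The wild-type counts came in a table of their own. Processing run, library batch, genotype and any difference in doxycycline thus cannot be told apart in any difference below. The description of RNA extraction attached to the wild-type samples names retinas. The 19 retinal genes together held 16.9 and 17.6 CPM in untreated and 17.9 and 16.1 CPM in wild-type cells. Of these 6 passed the filter, 2 being higher (Rlbp1, with 62 and 50 against 93 and 91 counts, and Prph2, with 5 and 8 against 21 and 11) and 2 lower, and Crx, Rcvrn, Rpe65 and Opn1mw had 0 counts in all 4 libraries. Pou5f1, which encodes Oct4, had 10625 and 12703 counts in untreated and 11743 and 11725 in wild-type cells. The summed retinal level thus overlapped between the groups, and the stem cell marker lay at a similar level in both.

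Polr2a (chr11:69733997-69758637, mm10) was read 6623 and 6568 times in the untreated libraries and 6866 and 7129 times in the wild-type libraries. The groups did not overlap, but the difference of 0.10 ± 0.06 (log2 of wild-type over untreated, ± SE) did not pass edgeR's quasi-likelihood test (adjusted p = 0.172). It passed without untreated replicate 1 (0.11, adjusted p = 0.0156) and with offsets for GC content and length (0.17, adjusted p = 0.0205). The tag lies at the protein's end and whole-gene counts do not show whether it is present. At the other edited locus, Gt(ROSA)26Sor, a noncoding transcript that covers the Rosa26 insertion site, had 58 and 29 counts in untreated and 70 and 60 in wild-type cells, which did not pass the test (0.59 ± 0.30, adjusted p = 0.112). It passed without untreated replicate 1 (1.18, adjusted p = 0.00553) and with the replicate number as a block (0.61, adjusted p = 0.0318). Its neighbour Thumpd3 was higher in wild-type cells (0.33 ± 0.07), and Setd5, on the other side, differed by 0.25 ± 0.06, a call that was lost without wild-type replicate 2 (adjusted p = 0.105).

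Of all genes tested, 29.9% were higher and 30.7% lower in wild-type cells at an adjusted p under 0.05, and 7.12% were higher and 11% lower by more than 2-fold. The median difference of all tested genes was -0.01 on the log2 scale. Because more than 1 in 2 genes passed, a count of members that passed is read below against these shares, and the size of the differences is given beside it. All differences below are log2 of wild-type over untreated with the SE, all adjusted p come from edgeR's quasi-likelihood test over all 15778 genes, and p-values measure only the spread between the 2 libraries of a group. The plot of all list members shows every gene of these lists. Together the 15 metabolic lists had 330 tested genes, of which 167 were higher and 98 lower, with a median of 0.19. The 13 signalling lists had 231 tested genes, 73 higher and 87 lower, with a median of -0.09. Of the 266 genes of the 12 developmental lists 221 were tested, and these are given list by list, since many passed the filter only through the untreated libraries.

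**Figure D1:**
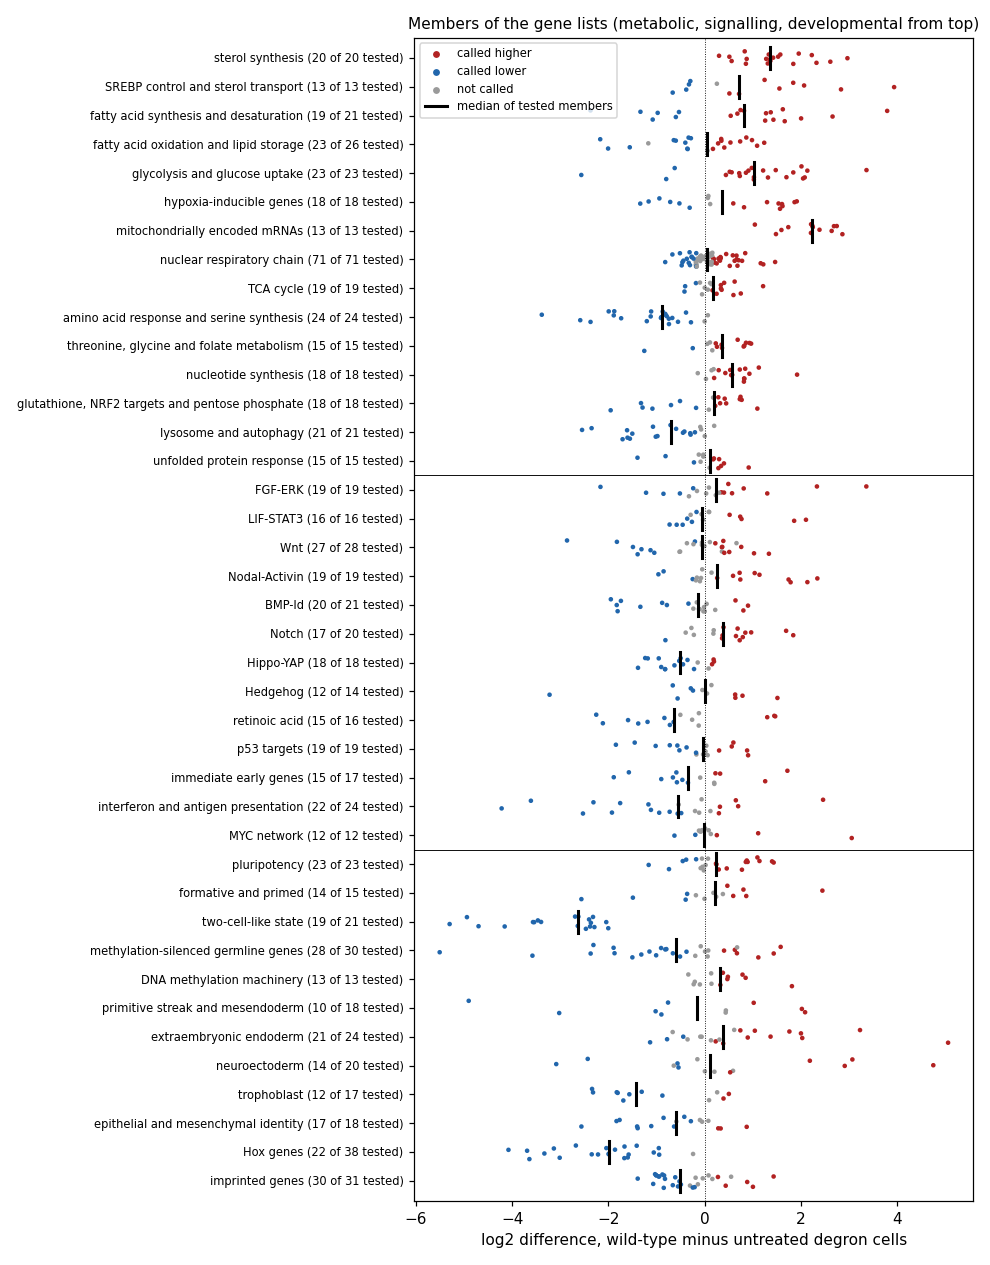
Log2 difference (wild-type minus untreated degron cells, x axis) of each tested member of the metabolic, signalling and developmental gene lists, 1 list per line. Points are genes, coloured by whether they passed at an adjusted p under 0.05, and the black bar is the median of tested members, from 2.24 for mitochondrially encoded mRNAs down to -2.64 for the list of 2-cell-like genes, many of which passed the count filter only through the untreated libraries.

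The whole cholesterol pathway was higher in wild-type cells. All 20 genes of sterol synthesis were tested, all 20 were higher and 14 of them by more than 2-fold, with a median of 1.36. Their summed level was 756 and 792 CPM in the untreated libraries and 2422 and 2408 CPM in the wild-type libraries, and 749 and 736 CPM in the auxin-treated libraries of the degron line. Hmgcs1 (chr13:119690379-119708260), which makes HMG-CoA, had 1094 and 1062 counts in untreated and 6563 and 6533 in wild-type cells, a difference of 2.61 ± 0.06 or 6.12-fold. The groups were far apart and the replicates nearly equal. Idi1, the isomerase that supplies the activated isoprene unit, had 138 and 149 counts against 1062 and 1170 and showed the largest difference of the list, 2.97 ± 0.09. Fdps, which joins these units into farnesyl diphosphate, differed by 2.33 ± 0.07, and Dhcr7, which carries out the final step to cholesterol, by 2.23 ± 0.08. The smallest difference was that of the desaturase Sc5d, 0.30 ± 0.08 (adjusted p = 0.00884).

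Sterol genes answer to the SREBP transcription factors, which are held in the endoplasmic reticulum by Insig proteins when sterols are plentiful and are released when sterols are scarce. Of 13 genes of SREBP control and sterol transport, 8 were higher and 4 lower, with a median of 0.72. Insig1, itself a sterol-responsive gene, was read 472 and 577 times in untreated and 3712 and 3717 times in wild-type cells (2.84 ± 0.08), and Stard4, a carrier of cholesterol between membranes, 416 and 397 against 1438 and 1456 times (1.84 ± 0.07). The groups did not overlap for either gene. Among the factors themselves, Srebf2 differed by 1.25 ± 0.07 and Srebf1 by 0.72 ± 0.06. Abcg1, a cholesterol exporter, was also higher (1.55 ± 0.12), while Npc1, which moves cholesterol out of lysosomes, was lower, with 1639 and 1691 against 1073 and 1013 counts (-0.66 ± 0.07).

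The promoters of a sterol enzyme and of the sterol-responsive regulator are shown because these genes carried some of the largest lipid differences. Each is the RefSeq window of 300 bases on GRCm38.p6, from 250 bases before the annotated start to 50 after, printed 5′ to 3′ in the direction of the gene: Hmgcs1 at chr13:119690101-119690400 on the + strand and Insig1 at chr5:28071162-28071461 on the + strand. The capitals mark a sterol regulatory element spelled TCACNCCAC in Hmgcs1 and an E-box spelled CACGTG in Insig1, both searched on both strands.
Hmgcs1: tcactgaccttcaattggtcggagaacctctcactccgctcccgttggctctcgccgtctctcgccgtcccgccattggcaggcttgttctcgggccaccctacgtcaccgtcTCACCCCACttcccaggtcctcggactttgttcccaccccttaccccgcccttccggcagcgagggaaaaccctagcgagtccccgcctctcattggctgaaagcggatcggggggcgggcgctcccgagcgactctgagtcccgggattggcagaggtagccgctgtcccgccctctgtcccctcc
Insig1: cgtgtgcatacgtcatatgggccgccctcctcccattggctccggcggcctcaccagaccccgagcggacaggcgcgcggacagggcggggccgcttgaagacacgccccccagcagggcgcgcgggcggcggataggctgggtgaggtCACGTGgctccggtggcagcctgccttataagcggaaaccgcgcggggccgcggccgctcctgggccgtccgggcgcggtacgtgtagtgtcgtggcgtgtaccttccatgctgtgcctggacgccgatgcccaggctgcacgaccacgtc
The element begins 137 bases before the start of Hmgcs1, and the E-box 101 bases before that of Insig1. TCACNCCAC was present in 1.44% of 27025 genes with a promoter in the table. Of the 15 sterol synthesis genes that had one, only Hmgcs1 held it. CACGTG was present in 8.09% of all genes and 3 of those 15. CCAAT, the box bound by NF-Y, was present in 14 of the 15 and in 41.1% of all genes. Insig1 is in the list of SREBP control and sterol transport, which had 8 genes with a promoter. Of these, 3 held CACGTG, Insig1 among them, and 0 held TCACNCCAC. Among the 17 fatty acid synthesis genes with a promoter in the table, CCAAT was found in 10 and TCACNCCAC in none.

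Fatty acid synthesis and desaturation moved with the sterol genes, but not as a whole. Of its 21 genes 19 were tested, since Elovl3 and Scd4 had at most 3 counts in any library, and 13 were higher and 6 lower, with a median of 0.82. Scd2, a desaturase that introduces the first double bond into saturated acyl chains, had 2214 and 2172 counts in untreated and 13703 and 13805 in wild-type cells (2.66 ± 0.06). Fasn, the fatty acid synthase, differed by 2.01 ± 0.07, Fads2 by 1.67 ± 0.08, Acly, which cleaves citrate to supply cytosolic acetyl-CoA, by 1.63 ± 0.06, and Acaca, the carboxylase of the committed step, by 1.43 ± 0.07. Fads3 went the other way, from 155 and 138 counts in untreated to 21 and 35 in wild-type cells (-2.37 ± 0.24), as did Scd3 (-1.33 ± 0.28), Elovl4 (-1.08 ± 0.16) and Elovl7 (-0.98 ± 0.12). Among genes of fatty acid oxidation and lipid storage, 11 of 23 tested were higher and 10 lower. Plin2, a protein coat of lipid droplets, had the largest difference there, with 3674 and 2934 counts in untreated and 749 and 709 in wild-type cells (-2.17 ± 0.10). Acadm, a dehydrogenase of oxidation, was higher (1.09 ± 0.07).

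**Figure D2:**
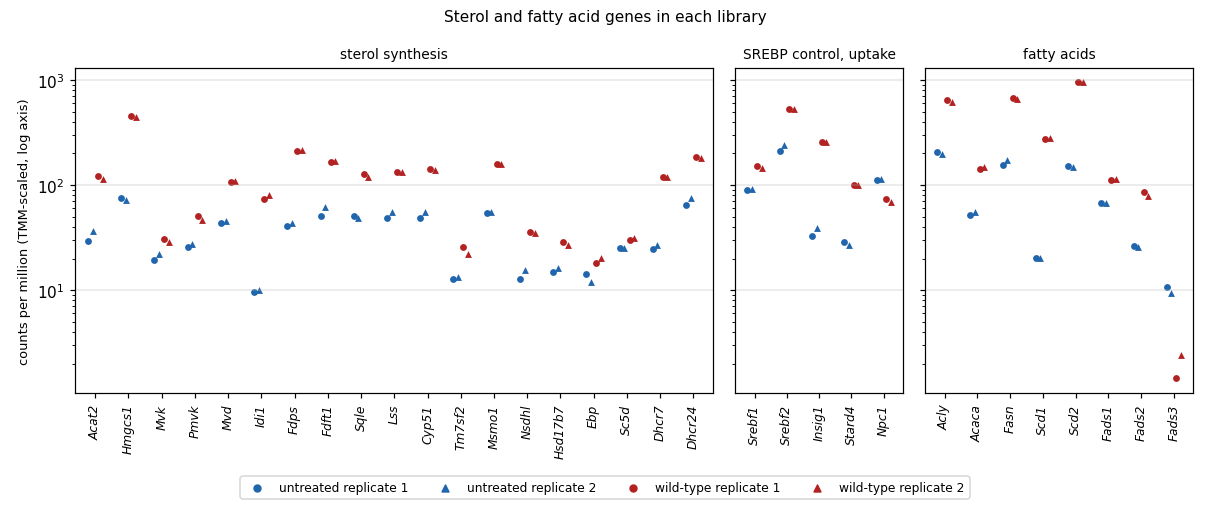
CPM (counts scaled to 1000000 per library, log axis) of sterol synthesis, SREBP and fatty acid genes in each of the 4 libraries, blue for untreated and red for wild-type, circles and triangles for replicates 1 and 2. The wild-type points lie above the untreated ones for each of the sterol synthesis genes shown, whereas Npc1 and Fads3 lie below them.

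Glycolytic genes were higher in wild-type cells, with 20 of 23 higher, 12 of them by more than 2-fold, 3 lower, and a median of 1.02. Summed over the list, the untreated libraries held 9469 and 9462 CPM, the wild-type libraries 17431 and 17071 CPM and the auxin-treated libraries 9568 and 9981 CPM. Ldha (chr7:46841475-46855627), which turns pyruvate into lactate, had 4134 and 4517 counts in untreated and 19017 and 18702 in wild-type cells (2.14 ± 0.07), a 4.39-fold difference, and Slc16a3, which exports lactate, 664 and 614 against 2676 and 2693 (2.08 ± 0.07). Aldoc, an aldolase, showed the largest difference of the pathway, with 93 and 89 against 945 and 918 counts (3.36 ± 0.10). Aldoa (2.01 ± 0.07), Pfkl, the liver-type phosphofructokinase (2.05 ± 0.06), Gapdh (1.84 ± 0.09) and Tpi1 (1.70 ± 0.06) followed. Pgk1 and Eno1 were higher too (1.48 ± 0.06 and 1.22 ± 0.06), but more than 1 in 2 of the 100-base stretches of their transcripts also occur in other genes' transcripts, so their reads may be split. The exceptions were Eno2, the neuronal enolase, read 1102 and 1193 times in untreated and 199 and 186 times in wild-type cells (-2.56 ± 0.09), the glucose transporter Slc2a3 (36200 and 35252 against 20165 and 20623 counts, -0.80 ± 0.06) and Pfkfb3 (-0.62 ± 0.09). The enolases Eno1 and Eno2 thus differed in opposite directions.

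Several glycolytic genes are also hypoxia-inducible, but the 18 genes of the hypoxia list did not move as 1 block. Of these, 9 were higher and 6 lower. Bnip3, a mitophagy receptor, differed by 1.92 ± 0.08, the prolyl hydroxylase Egln3 by 1.87 ± 0.09 and Pdk1, which inhibits pyruvate dehydrogenase, by 1.62 ± 0.06. P4ha2 (-1.34 ± 0.13), Ndrg1 (-0.94 ± 0.12), the angiogenic factor Vegfa (-0.72 ± 0.09) and Hif1a itself (-0.31 ± 0.06) were lower. Car9 was lower (-0.52 ± 0.20) and Ddit4 and Kdm3a did not pass the test.

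Messenger RNAs encoded in the mitochondrial genome were all higher in wild-type cells: 13 of 13 passed, each by more than 2-fold, with a median of 2.24. mt-Co1, a core subunit of cytochrome oxidase, had 15101 and 18908 counts in untreated and 108326 and 109090 in wild-type cells (2.69 ± 0.10), and mt-Cytb, of complex III, 8806 and 10264 against 26280 and 26610 (1.48 ± 0.08). The 13 mRNAs summed to 3415 and 4007 CPM in untreated, 15298 and 15003 CPM in wild-type and 3988 and 4410 CPM in auxin-treated libraries. The wild-type replicates did not agree for some of them. mt-Co3 had 112 and 195 counts in untreated but 1897 and 316 in wild-type cells, and mt-Co2, mt-Atp6, mt-Nd3 and mt-Nd4l were also read 2 to 7 times as often in wild-type replicate 1 as in replicate 2. Of the 100-base stretches of these 5 transcripts, 97.6% to 99.9% also occur in other genes' transcripts, and the calls of mt-Co2, mt-Co3 and mt-Atp6 were lost with robust dispersions. The nuclear-encoded respiratory chain did not show the same difference. Of its 71 tested genes 23 were higher and 15 lower, 3 by more than 2-fold, namely Atp5k (1.47 ± 0.08), Cox7a2 (1.22 ± 0.08) and Uqcrh (1.17 ± 0.08). In the TCA cycle 10 of 19 genes were higher and 3 lower, with cytosolic Idh1 (1.22 ± 0.07) alone past 2-fold.

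Nucleotide synthesis was higher in 14 of 18 genes and lower in none, with a median of 0.56. Rrm2, the regulated subunit of ribonucleotide reductase, had 1176 and 1327 counts in untreated and 4738 and 4674 in wild-type cells (1.92 ± 0.07). The purine enzyme Pfas differed by 1.13 ± 0.06 and Cad, which starts pyrimidine synthesis, by 0.82 ± 0.06. In threonine, glycine and folate metabolism 10 of 15 genes were higher and 2 lower. Tdh, the threonine dehydrogenase on which mouse stem cells rely, had 1491 and 1977 counts against 3127 and 3116 (0.86 ± 0.10), and Gldc differed by 0.81 ± 0.09 and Mthfd1 by 0.97 ± 0.06.

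Genes of the amino acid response were higher in the untreated degron cells. ATF4 is the transcription factor that switches on transporters and synthetic enzymes when amino acids are short or when the kinases that phosphorylate eIF2α are active, and its targets include Chop, the product of Ddit3. None of the 24 genes of this list was higher in wild-type cells and 22 were lower, 10 of them by more than 2-fold, with a median of -0.89. The list summed to 5837 and 6011 CPM in untreated, 3149 and 3136 CPM in wild-type and 5654 and 5778 CPM in auxin-treated libraries. Ddit3 (chr10:127290774-127296288) was read 2834 and 2808 times in untreated and 240 and 296 times in wild-type cells, 10.4-fold lower (-3.38 ± 0.09). Trib3, a pseudokinase induced with it, had 2990 and 2928 against 569 and 566 counts (-2.37 ± 0.07). Atf4 itself differed less, 6847 and 6954 against 4071 and 4109 counts (-0.74 ± 0.06). The libraries of a group were close and the groups apart for all 3 genes.

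Synthetic enzymes and transporters of the same list were lower by smaller amounts. Asns, asparagine synthetase, had 11598 and 13157 counts in untreated and 6677 and 6467 in wild-type cells (-0.90 ± 0.07), and Phgdh, which starts serine synthesis, differed by -0.74 ± 0.06. The heavy and light chains of the large neutral amino acid transporter were both lower, Slc3a2 by -1.20 ± 0.07 and Slc7a5 by -1.11 ± 0.06. The cystine transporter Slc7a11 had 59 and 45 against 7 and 10 counts (-2.59 ± 0.36). Aldh1l2, a mitochondrial folate enzyme, differed by -1.99 ± 0.11, the transcription factors Atf3 and Cebpb by -1.89 ± 0.15 and -1.88 ± 0.17, and Vldlr by -1.74 ± 0.11. Cth and Gpt2 did not pass the test.

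The promoters of Asns and Trib3 are shown with a composite C/EBP-ATF element, a letter pattern chosen after the values were seen. They lie at chr6:7693160-7693459 on the - strand and chr2:152344011-152344310 on the - strand, again RefSeq on GRCm38.p6 and read in the direction of the gene, with TGATGNAAN or its reverse complement in capitals.
Asns: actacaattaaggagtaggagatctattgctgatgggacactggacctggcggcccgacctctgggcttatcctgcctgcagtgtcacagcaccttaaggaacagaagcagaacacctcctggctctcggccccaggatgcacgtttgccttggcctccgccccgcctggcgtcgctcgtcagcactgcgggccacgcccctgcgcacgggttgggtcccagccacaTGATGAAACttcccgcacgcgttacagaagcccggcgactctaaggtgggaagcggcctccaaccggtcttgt
Trib3: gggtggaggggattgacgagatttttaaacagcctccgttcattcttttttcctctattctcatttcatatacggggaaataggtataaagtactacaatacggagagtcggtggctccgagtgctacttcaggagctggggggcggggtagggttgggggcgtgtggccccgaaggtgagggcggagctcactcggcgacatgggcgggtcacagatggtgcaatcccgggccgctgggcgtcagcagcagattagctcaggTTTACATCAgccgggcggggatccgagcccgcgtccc
The match starts 23 bases before the start of Asns and 13 bases after that of Trib3. The pattern was present in 4.50% of all genes with a promoter and in 7 of the 20 list genes that had one, which were Asns, Atf3, Chac1, Pycr1, Slc7a11, Trib3 and Vldlr.

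Lysosomal and autophagy genes, many of them targets of the factors Tfeb and Tfe3, were also lower in wild-type cells. Of 21 genes 17 were lower, 9 by more than 2-fold, and none was higher, with a median of -0.71 and summed levels of 4870 and 4710 CPM in untreated, 1940 and 1933 CPM in wild-type and 4832 and 4768 CPM in auxin-treated libraries. Sqstm1 (chr11:50199366-50210827), the autophagy receptor p62, had 19296 and 16499 counts in untreated and 3003 and 3077 in wild-type cells, 5.85-fold lower (-2.55 ± 0.08). Lamp1, a major protein of the lysosomal membrane, had 11993 and 13001 against 4068 and 4046 (-1.61 ± 0.06), and the protease Ctsd 5900 and 6469 against 3090 and 3132 (-0.98 ± 0.06). Hexa, a glycosidase (-1.71 ± 0.08), Flcn, which controls Tfeb and Tfe3 at the lysosome (-1.60 ± 0.06), the calcium channel Mcoln1 (-1.55 ± 0.07) and Gpnmb (-2.35 ± 0.29) were lower too. Tfeb, Gla and Wipi1 were among those that did not pass the test. Lamp1, Mcoln1, Atp6v0d1 and Map1lc3b lie on chromosome 8, whose genes were lower as a whole (median -0.24, described further on), and the part of that shift in their values was not tested.

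The promoters of Ctsd and Lamp1 hold the palindrome CACGTG, the core of the element read by Tfeb and Tfe3. Lamp1 was chosen for this after its values were seen. The windows are chr7:142387778-142388077 on the - strand and chr8:13158911-13159210 on the + strand, with each CACGTG in capitals.
Ctsd: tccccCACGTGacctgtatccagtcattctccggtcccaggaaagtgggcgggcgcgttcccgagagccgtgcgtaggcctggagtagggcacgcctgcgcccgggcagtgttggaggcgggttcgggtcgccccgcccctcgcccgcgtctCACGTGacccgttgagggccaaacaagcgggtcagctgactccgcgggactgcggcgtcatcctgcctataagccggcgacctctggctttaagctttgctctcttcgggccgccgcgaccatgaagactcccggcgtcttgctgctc
Lamp1: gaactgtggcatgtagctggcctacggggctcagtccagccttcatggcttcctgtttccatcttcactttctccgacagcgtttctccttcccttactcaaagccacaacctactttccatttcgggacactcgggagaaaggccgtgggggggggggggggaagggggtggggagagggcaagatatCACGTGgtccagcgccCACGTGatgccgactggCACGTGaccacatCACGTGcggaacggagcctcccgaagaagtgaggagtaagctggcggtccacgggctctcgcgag
Ctsd holds 2 matches and Lamp1 holds 4. CACGTG was present in 6 of the 17 list genes with a promoter in the table, namely Atp6v0d1, Ctsd, Ctsl, Gla, Lamp1 and Mcoln1, against 8.09% of all genes.

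Oxidative stress genes were mixed. In the list of glutathione, NRF2 and pentose phosphate genes 9 of 18 were higher and 7 lower. Hmox1, heme oxygenase, had 2674 and 2590 counts in untreated and 693 and 656 in wild-type cells (-1.95 ± 0.07), and the glutathione peroxidase Gpx1 differed by -1.32 ± 0.06, whereas Gsta4, a glutathione transferase, was higher (1.10 ± 0.07). Among 15 genes of the unfolded protein response 7 were higher and 3 lower. The chaperone Hspa5 did not pass the test with 9695 and 8528 against 8220 and 8418 counts (-0.12 ± 0.07), except without untreated replicate 2 (-0.22, adjusted p = 4.7e-05), Hsp90b1 was higher (0.92 ± 0.06), and Herpud1 was lower (-1.40 ± 0.08).

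**Figure D3:**
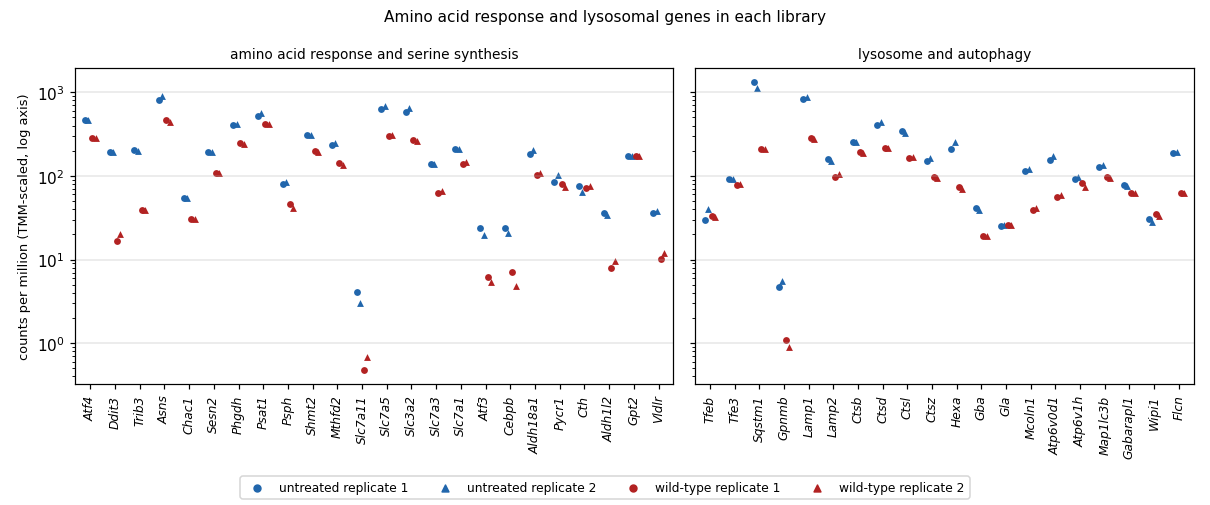
CPM (counts scaled to 1000000 per library, log axis) of the amino acid response genes and of the lysosome and autophagy genes in each library, blue for untreated and red for wild-type, circles and triangles for replicates 1 and 2. Ddit3, Trib3 and Sqstm1 show the widest gaps among the well-read genes, and Cth, Gpt2, Tfeb, Gla and Wipi1 show little or none.

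Signalling lists split within themselves, as did all genes tested, of which 29.9% were higher and 30.7% lower. In the FGF-ERK list 8 of 19 genes were higher and 5 lower. Egr1 (chr18:34859823-34864984), a transcription factor induced within minutes by ERK, had 151 and 143 counts in untreated and 1477 and 1525 in wild-type cells (3.36 ± 0.08), and the feedback inhibitor Spry4 had 392 and 326 against 1803 and 1794 (2.33 ± 0.09). Dusp4, a phosphatase that removes the activating phosphates of ERK, went the other way, with 2656 and 2872 against 583 and 640 counts (-2.17 ± 0.07). Dusp5 (-1.22 ± 0.13) and the receptor Fgfr1 (-0.86 ± 0.08) were lower as well, and the factor Etv4 did not pass the test. The ligand Fgf4 (4462 and 5152 against 4209 and 4333 counts, -0.16 ± 0.07, adjusted p = 0.065) did not pass either, but it did without untreated replicate 1 (-0.25, adjusted p = 0.000165) and under 4 other alternatives (adjusted p of 0.0118 to 0.0472). Feedback genes of the pathway thus stood on both sides.

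LIF and Wnt genes, which sustain self-renewal, were also divided, at shares near those of all genes tested. The LIF receptor Lifr was read 661 and 687 times in untreated and 2365 and 2496 times in wild-type cells (1.86 ± 0.07), and the STAT3 target Gbx2 70 and 91 against 338 and 351 times (2.11 ± 0.14). Socs3 was higher (0.74 ± 0.07), and Jak2 (-0.73 ± 0.08) and Stat3 (-0.58 ± 0.06) were lower, in a list of 16 genes with 5 higher and 6 lower. Of 27 tested Wnt genes 9 were higher and 8 lower. Wls, which carries Wnt proteins to the cell surface, had 1696 and 1508 counts in untreated and 197 and 241 in wild-type cells, 7.26-fold lower (-2.86 ± 0.10), and Porcn, which attaches the lipid that Wnt proteins need, differed by -1.49 ± 0.12. The receptors Fzd5 (1.34 ± 0.09) and Lgr4 (1.03 ± 0.07) were higher and Fzd2 was lower (-1.39 ± 0.11). The target Axin2 did not pass the test, with 250 and 268 against 274 and 238 counts, and Sp5 was lower on few counts (27 and 45 against 10 and 10, -1.82 ± 0.39).

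Ligands and feedback genes of Nodal and Activin were higher in wild-type cells. Of 19 genes 10 were higher, 6 of them by more than 2-fold, and 3 were lower. Inhbb, which encodes the subunit of activin B, had 171 and 175 counts against 844 and 900 (2.34 ± 0.09). Lefty1, a secreted antagonist of Nodal, had 390 and 588 against 2160 and 2104 (2.14 ± 0.13), Lefty2 differed by 1.79 ± 0.07 and the inhibitory Smad7 by 1.75 ± 0.07. Nodal differed by 0.59 ± 0.07 and its co-receptor Tdgf1 by 1.14 ± 0.06. Foxh1, the DNA-binding partner of Smad2, was lower, with 712 and 713 against 397 and 386 counts (-0.85 ± 0.08). In the BMP list 3 of 20 tested genes were higher and 8 lower: Bmp2 had 107 and 139 against 34 and 29 counts (-1.95 ± 0.23), and the target Id3 474 and 469 against 150 and 117 (-1.81 ± 0.12). Id1 differed by -0.88 ± 0.08 and Bmp8b by -1.83 ± 0.19.

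Notch, Hippo, Hedgehog and retinoic acid genes each had members past 2-fold. In the Notch list 11 of 17 tested genes were higher and 1 lower, led by Hes6 (1.84 ± 0.09) and the ligand Jag1 (1.69 ± 0.13), with Maml1, a coactivator, the lower one (-0.82 ± 0.08). In the Hippo-YAP list 13 of 18 were lower and 3 higher, with a median of -0.51. Axl, a receptor kinase and YAP target, had 1176 and 957 against 405 and 406 counts (-1.38 ± 0.10). The untreated replicates also differed for this list, by a median of -0.30 (replicate 2 minus replicate 1), against 0.03 between the wild-type replicates. Ptch1, the Hedgehog receptor and target, was higher (1.51 ± 0.08), while Hhip, a Hedgehog-binding protein, had 28 and 40 against 6 and 1 counts (-3.22 ± 0.54). In the retinoic acid list 8 of 15 tested genes were lower and 3 higher: Aldh1a2, which makes retinoic acid, had 110 and 107 against 17 and 28 counts (-2.25 ± 0.26), and the receptor Rara (1.30 ± 0.08) and the binding protein Crabp1 (1.45 ± 0.18) were higher.

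Immune, p53 and MYC genes followed no common direction. Genes of interferon response and antigen presentation summed to 775 and 829 CPM in untreated and 809 and 801 CPM in wild-type cells. These sums overlapped. Some of the genes, such as Isg15, passed the filter only through the untreated libraries, so no count of tested members is given. Isg15, an interferon-induced ubiquitin-like protein, had 96 and 115 counts in untreated and 8 and 3 in wild-type cells (-4.22 ± 0.36), its protease Usp18 differed by -3.61 ± 0.49, and B2m, the light chain of class I molecules, had 891 and 889 against 278 and 245 counts (-1.76 ± 0.09). Ifitm1 went the other way, 140 and 189 against 908 and 892 counts (2.46 ± 0.11). Among p53 targets 5 of 19 were higher and 8 lower, and Trp53 itself did not pass the test. In the list of immediate early genes 4 of 15 tested were higher, among them Fos (60 and 60 against 218 and 175 counts, 1.72 ± 0.18), and 8 lower, among them Fosl2 (-1.57 ± 0.13). Mycn was read 333 and 364 times in untreated and 2910 and 2852 times in wild-type cells, 8.33-fold higher (3.06 ± 0.07), whereas Myc had 193 and 152 against 202 and 161 counts and did not pass the test.

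Core pluripotency genes were present at high levels in both lines. Pou5f1 (0.02 ± 0.08, adjusted p = 0.835) and Esrrb (-0.08 ± 0.09, adjusted p = 0.463) did not pass the test, and their untreated replicates lay on both sides of the wild-type ones. Without untreated replicate 1 they differed by -0.094 (adjusted p = 0.00832) and -0.25 (adjusted p = 1.02e-05), and without untreated replicate 2 by 0.14 (adjusted p = 0.000743) and 0.10 (adjusted p = 0.0119), so that the direction depended on the library kept. Sox2 had 5390 and 6474 counts in untreated and 10739 and 10563 in wild-type cells (0.86 ± 0.08), Nanog 6332 and 6531 against 8835 and 8724 (0.46 ± 0.06), and Klf4 and Tfcp2l1 differed by 0.89 ± 0.07 and 0.78 ± 0.07. Nr5a2 (1.44 ± 0.11), Dppa5a (1.40 ± 0.09) and Utf1 (1.10 ± 0.06) were higher by more than 2-fold. Klf2 was lower (-1.16 ± 0.09), with 3809 and 4725 against 1842 and 1938 counts, as was Fbxo15 (-0.74 ± 0.08). Over the list 12 of 23 were higher and 5 lower. In these bulk libraries, fewer cells in a state and less RNA per cell in that state cannot be told apart.

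Genes of formative and primed cells were few in number and divided. Otx2, a factor that opens formative enhancers, had 23 and 32 counts in untreated and 141 and 158 in wild-type cells (2.45 ± 0.22). Cdh2, N-cadherin, had 403 and 401 against 55 and 80 (-2.56 ± 0.15). Dnmt3b differed by 0.47 ± 0.07. Among 13 genes of the DNA methylation machinery 7 were higher and none lower. Tet1, the dioxygenase that oxidises 5-methylcytosine, had 4439 and 4644 counts in untreated and 15289 and 16429 in wild-type cells (1.81 ± 0.06), Tet2 differed by 0.79 ± 0.07, and the maintenance factor Uhrf1 by 0.85 ± 0.07. Genes that promoter methylation silences outside the germline were mixed. Some, such as Xlr4a (37 and 38 counts against 2 and 4), passed the filter only through the untreated libraries, so no count is given. The list summed to 517 and 443 CPM in untreated and 423 and 424 CPM in wild-type cells. Taf7l had 406 and 292 against 65 and 69 counts (-2.37 ± 0.19), Dazl 951 and 618 against 358 and 346 (-1.15 ± 0.16), and Rhox5, an X-linked homeobox gene, 260 and 290 against 807 and 826 (1.58 ± 0.08). Xlr5a, another X-linked gene, had 28 and 29 counts against 1 and 0, at least 9.43-fold lower when the wild-type libraries are set to the floor of 3 counts per library.

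A small share of cells in such cultures switches on genes of the 2-cell embryo. Summed over all 21 genes of this list, the untreated libraries held 153 and 95.4 CPM and the wild-type libraries 16.6 and 16.3 CPM, and the auxin-treated libraries held 155 and 127 CPM. The untreated replicates differed from each other by a median of -0.69, so that the spread within that group was large, although neither came near the wild-type level. Zscan4c, a gene of this list, had 163 and 104 counts against 27 and 27, and Zfp352 had 111 and 82 against 4 and 2 (-4.94 ± 0.41). Tdpoz4 was at least 14.7-fold lower with 53 and 36 counts against 1 and 1. Of the 21 genes 19 passed the filter on low counts, most of them only through the untreated libraries, so no count over the tested members is given. The Zscan4, Usp17l and Tdpoz genes are near-identical copies, and reads may be divided among them.

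Lineage markers did not share a direction. The mesoderm factor T, brachyury (chr17:8434423-8442496), had 163 and 267 counts in untreated and 6 and 8 in wild-type cells, 29.9-fold lower (-4.90 ± 0.35), and Fgf8 42 and 91 against 8 and 8 (-3.02 ± 0.45). Eomes, another streak factor, was higher (61 and 81 against 152 and 134, 1.02 ± 0.19), as was the endoderm factor Sox17 (9 and 24 against 79 and 61, 2.09 ± 0.36). Only 10 of the 18 streak genes passed the filter, and the list summed to 44.3 and 56.1 CPM in untreated and 33.4 and 29.0 CPM in wild-type cells.

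Genes of extraembryonic endoderm, the lineage that forms the yolk sac, were more often higher by number, with 11 of 21 tested higher and 3 lower. Their summed level went the other way, with 3831 and 3544 CPM in untreated and 3329 and 3344 CPM in wild-type cells. Cubn, the endocytic receptor cubilin (chr2:13276338-13491813), had 19 and 17 counts in untreated and 575 and 626 in wild-type cells, 33.4-fold higher (5.06 ± 0.15), the largest positive difference of any list member other than histone genes. Srgn (3.23 ± 0.28), Pth1r (2.03 ± 0.20), the endocytic adaptor Dab2 (85 and 82 against 323 and 342 counts) and Gata6 (66 and 55 against 115 and 133, 1.04 ± 0.20) were higher. Afp had 0 counts in all 4 libraries, Ttr had at most 2, and Apoe was lower (-0.78 ± 0.08).

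Neural genes had large differences in both directions. Neurod1, a proneural factor (chr2:79452521-79456751), had 16 and 22 counts in untreated and 484 and 540 in wild-type cells, 27.0-fold higher (4.75 ± 0.17), Olig2 had 44 and 62 against 461 and 425 (3.07 ± 0.15), and Sox1 differed by 2.19 ± 0.17. Gap43, a growth cone protein, had 306 and 294 against 33 and 37 (-3.08 ± 0.17). Pax6 did not pass the test. The list summed to 219 and 205 CPM in untreated and 251 and 247 CPM in wild-type cells. At least 1 tested member passed the filter only through the wild-type libraries, where it was high, so no count of tested members is given.

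Trophoblast, mesenchymal and Hox genes lay on the side of the untreated cells. Krt8 and Krt18, keratins of simple epithelia, had 15710 and 10925 against 2650 and 2652 counts (-2.32 ± 0.14) and 10139 and 6977 against 2432 and 2429 (-1.81 ± 0.14). Gata2 differed by -2.34 ± 0.23 and Hand1 by -1.69 ± 0.18, while Tfap2c was higher (0.50 ± 0.09) and the defining trophoblast genes Cdx2 and Elf5 had at most 9 counts in any library. The untreated replicates differed by a median of -0.32 in this list. Vim, the intermediate filament of mesenchymal cells, had 7222 and 6666 counts against 1978 and 1895 (-1.83 ± 0.07), Zeb2 differed by -2.56 ± 0.22 and Twist1 by -1.11 ± 0.16, while Cdh1, E-cadherin, did not pass the test (11257 and 10243 against 10354 and 10232, -0.05 ± 0.07), except without untreated replicate 2 (-0.13, adjusted p = 0.00172), and Epcam was higher (0.87 ± 0.06). All 38 Hox genes together held 81.5 and 77.4 CPM in untreated, 26.2 and 24.9 CPM in wild-type and 88.8 and 91.6 CPM in auxin-treated libraries. Hoxa3, for example, had 73 and 43 counts in untreated and 2 and 7 in wild-type cells (-3.64 ± 0.49). As 22 of the 38 passed the filter, several through the untreated libraries alone, the sums describe the cluster better than a count of tested members. Of 30 tested imprinted genes, which are expressed from 1 parental copy, 5 were higher and 18 lower. Grb10 differed by 1.43 ± 0.08, Impact by -1.39 ± 0.06, Meg3 by -0.96 ± 0.08 and Dlk1 by -1.03 ± 0.15, and H19 did not pass the test.

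**Figure D4:**
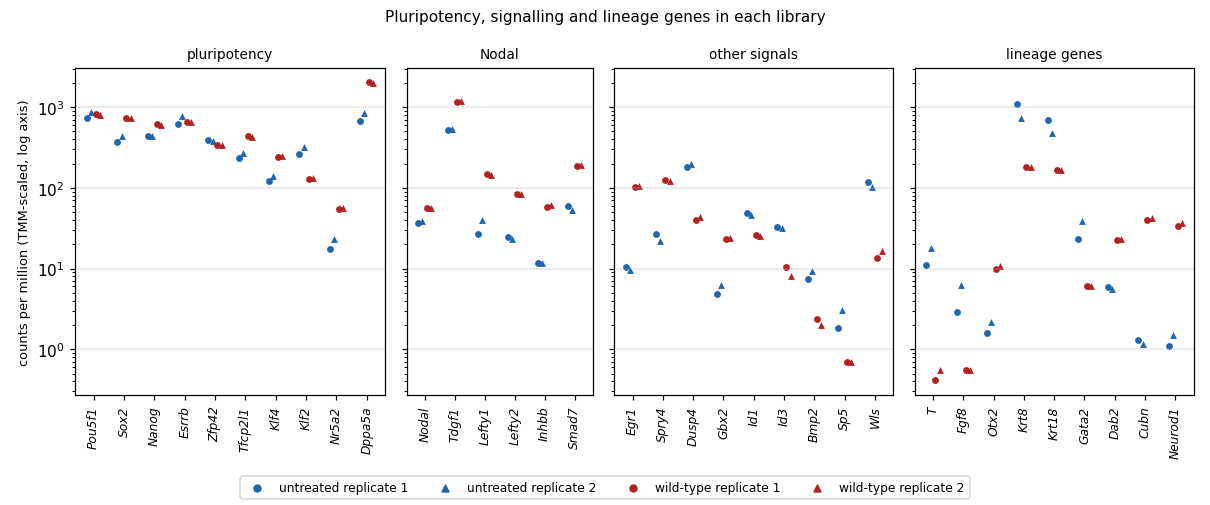
CPM (counts scaled to 1000000 per library, log axis) of pluripotency, Nodal, other signalling and lineage genes in each library, blue for untreated and red for wild-type, circles and triangles for replicates 1 and 2. Pou5f1, Esrrb and Zfp42 lie close together in all 4 libraries, while Egr1, Cubn and Neurod1 are at least 10 times higher and T more than 20 times lower in wild-type cells. Unlike Pou5f1 and Esrrb, Zfp42 passed the test as lower in wild-type cells, a call lost with GC and length offsets (-0.11).

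Fibroblast genes were measured because the cells were cultured on feeders. The paper places the harvest after passages of the fibroblast feeders, and the share of feeder RNA in these libraries was not tested. The 16 genes summed to 921 and 801 CPM in untreated, 315 and 311 CPM in wild-type and 944 and 997 CPM in auxin-treated libraries. Tagln and Acta2 made up most of the sum in untreated cells, with 7064 and 5968 against 1242 and 1205 counts (-2.40 ± 0.09) and 1949 and 1823 against 691 and 627 (-1.51 ± 0.08), and 67.9% of the exon bases of Tagln lie in exons of other genes. The defining fibroblast genes Dcn, Lum and Fap had at most 1 count in any library, and Col1a1 (941 and 938 against 962 and 915) and Col3a1 did not pass the test. In all, 13 of the 16 were tested, 1 was higher and 9 lower.

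The Y chromosome and chromosome 8 stood apart. Genes of the Y chromosome were low in wild-type cells, the 9 genes summing to 230 and 202 CPM in untreated, 17.9 and 15.7 CPM in wild-type and 252 and 232 CPM in auxin-treated libraries. Ddx3y, an RNA helicase, had 895 and 676 counts against 101 and 106 (-2.91 ± 0.15), Uty had 607 and 522 against 38 and 24 (-4.17 ± 0.18), and Kdm5d, a histone demethylase, had 32 and 39 against 0 and 0, at least 11.7-fold lower. Both lines descend from a male parent, and the wild-type cells kept some reads for most of these genes. Of the 859 tested genes of chromosome 8, 150 (17.5%) were higher and 406 (47.3%) lower, with a median of -0.24. Medians of the other autosomes and of the X chromosome lay between -0.06 and 0.09. The shift ran along the chromosome, since each of its 7 windows of 20 Mb had a negative median, from -0.32 to -0.13 with 62 to 175 genes each. Among chromosome 8 genes, the 261 that averaged 1000 counts or more had a median of -0.19, against 0.06 to 0.24 on the other autosomes and the X chromosome, so the shift was also present among well-read genes. Chromosome 8 took 6.65% and 6.65% of all counts in untreated, 5.30% and 5.30% in wild-type and 6.64% and 6.69% in auxin-treated libraries. Dusp4, Hmox1, Lamp1 and Slc7a5 lie on this chromosome, with differences of -1.11 to -2.17. Klf2, Cdh1, Hhip, Aars and Mcm5, named in other paragraphs, lie there too. The part of the chromosome's shift in any of these genes was not tested.

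**Figure D5:**
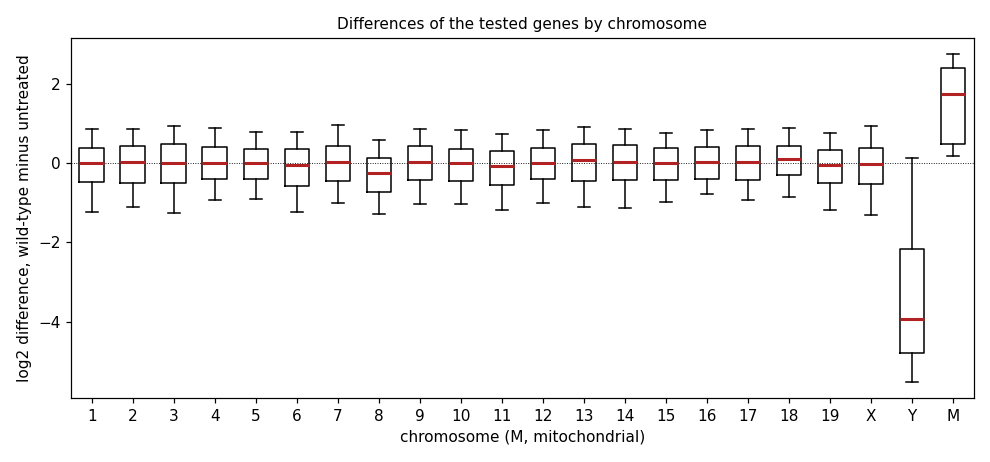
Log2 difference (wild-type minus untreated) of all tested genes by chromosome. The red bar is the median, the box the middle 50% of genes and the whiskers the 10th and 90th percentiles. Chromosome 8 is shifted down (median -0.24), the few Y-linked genes lie far below 0 and the mitochondrial genes far above it.

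Protein-coding genes with the largest differences and at least 100 counts on average included several outside the lists. Higher in wild-type cells were Prmt8, an arginine methyltransferase (14 and 24 against 449 and 481 counts, 4.61 ± 0.18), Ndufa4l2, a hypoxia-inducible mitochondrial protein (16 and 23 against 423 and 448, 4.48 ± 0.17), Grin1, a glutamate receptor subunit (3.79), and Prr19 (3.22). Lower were Cox6a2, the muscle form of a cytochrome oxidase subunit, with 317 and 327 counts in untreated and 7 and 6 in wild-type cells (-5.59), Trim66 with 346 and 442 against 20 and 22 (-4.21), and Car6, a secreted carbonic anhydrase, with 229 and 217 against 20 and 12 (-3.78). Only genes whose groups did not overlap could enter this ranking, so the lack of overlap is no result of its own. Gm10184 was read 30 and 39 times in untreated but 85 and 720 times in wild-type cells, 98.9% of its 100-base stretches also occur elsewhere, and its call was lost with robust dispersions.

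Sequence and annotation features also moved with the differences. The median was 0.16 in the fifth of genes lowest in GC content and -0.09 in the highest, -0.08 in the shortest and 0.07 in the longest transcripts, and -0.32 for genes under 20 mean counts against 0.12 for those of at least 1000. Of small nucleolar RNA genes 39.0% were higher by more than 2-fold. Among 70 replication-dependent histone genes, whose mRNAs lack a poly(A) tail, 24 were tested, with 5 higher and 12 lower. The part of these features in the list results was not tested beyond the fit with GC and length offsets.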

How the data were processed

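RNA was extracted with TRIzol and sequenced as paired 150-base reads. The authors aligned reads to mm10 with HISAT2 2.1.0 and deposited raw counts per GENCODE gene, with HTSeq and Salmon also named in their notes; the strand setting and annotation release were not given in the sources used here. Counts of wild-type and degron cells stood in separate deposited tables, each with columns of the authors' own DESeq2 comparison (fold changes and p-values), which were not used. A further 2 count columns of the wild-type table matched no sample and were not used.

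The tables were joined on gene identifier. Genes passing filterByExpr (minimum count 10) were scaled by TMM and tested with edgeR 4.0.16 (R 4.3.3) by the quasi-likelihood F test on the 4 libraries, with Benjamini-Hochberg adjustment and a threshold of 0.05. Symbols that a spreadsheet had turned into dates (27), chromosomes and exons were read from GENCODE vM21. Promoters were RefSeq windows. The members and gene lists were chosen with earlier results of these data known. Named were Polr2a, each list's defining members and up to 4 passing members per list and direction with the largest differences. The 12 protein-coding genes with the largest differences in each direction were also named. These had to pass, to average at least 100 counts and to have groups that did not overlap. Other genes were named after their values were seen. The scripts were tested on simulated counts. Alternatives were DESeq2 1.42.0 and other scalings, filters, dispersions and left-out libraries. The study calls its replicates biological without saying how they were separated, and p-values cover only the spread between these libraries. Some genes of the lists are not reported here by name.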

Additional observations from a re-analysis of the deposited data

How the results depend on the processing

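The counts of genes higher (4713) and lower (4842) stayed within 1.5 times under the alternatives run, among them DESeq2 (3572 and 3513), no filter (3994 and 4040) and leaving out a library (3736 to 4768 and 3796 to 4802). Beyond 2-fold, 1124 were higher and 1737 lower, and 1032 to 1177 and 1561 to 1772 with a library left out. Testing against the 2-fold threshold itself (glmTreat) left 472 and 794, a stricter test by construction, and requiring 10 counts in every library left 1137 lower ones, since fewer genes were tested. Polr2a passed with GC and length offsets (0.17, adjusted p = 0.0205) and without untreated replicate 1 (0.11, adjusted p = 0.0156); the cause was not tested. With a library left out, Polr2a ranged from 0.077 to 0.13, Esrrb from -0.25 (without untreated replicate 1, adjusted p = 1.02e-05) to 0.10 (without untreated replicate 2, adjusted p = 0.0119) and Pou5f1 from -0.094 (without untreated replicate 1, adjusted p = 0.00832) to 0.14 (without untreated replicate 2), so no direction holds for Esrrb or Pou5f1. Of 358 other named genes that passed, 57 lost the call under at least 1 alternative and 0 changed direction. Of the 28 that did not pass, 15 passed under at least 1. The medians of 9 lists changed sign under an alternative, the largest of them 0.18 in size, so no direction is read from them. With the replicate number as a block, 4775 were higher and 4914 lower, and 1139 and 1754 past 2-fold; same-numbered libraries of the 2 groups did not deviate together (correlation -0.0571 over 10842 genes), so the numbers are names only.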

Other observations

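Gene families outside the lists, chosen after the values of all genes were seen, are given as descriptions. Of 20 cytosolic aminoacyl-tRNA synthetases, which charge tRNAs with amino acids, 14 were lower in wild-type cells and 2 higher, with a median of -0.28. Wars, the tryptophan enzyme, had 4270 and 4318 counts in untreated and 1598 and 1566 in wild-type cells (-1.43), Sars differed by -1.33 and Aars by -1.29. Of the 17 mitochondrial synthetases, 8 were higher and 4 lower. Of 21 tested subunits of the vacuolar ATPase, which acidifies lysosomes, 16 were lower and 1 higher, with a median of -0.57. Atp6v0b differed by -1.46 and Atp6ap1 by -1.27, and Atp6v0a4 was the higher one (1.19).

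The cyclins and the replicative helicase, 2 families of the cell cycle, were mostly on the side of the wild-type cells. Of 9 tested cyclins of the A, B, D and E types 8 were higher and none lower, with a median of 0.91, among them Ccna1 on few counts (13 and 7 against 47 and 38, 2.08), Ccne1 (1.22) and Ccnb1 (1.00). Of the 6 subunits of the replicative helicase 5 were higher, Mcm6 by 0.99, while Mcm5 (-0.02) did not pass the test. Galectins, which bind cell-surface sugars, had 4 of 7 tested genes lower and none higher: Lgals3 had 1148 and 865 counts in untreated and 132 and 148 in wild-type cells (-2.84), and Lgals1 had 6433 and 5257 against 1178 and 1129 (-2.33). Of 8 subunits of the TRiC chaperonin 5 were higher, with a median of 0.26.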
